A study of Homo sapiens with 6 samples.

Results

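The genes described here are the integrins, laminins and collagens, together with fibronectin (FN1), vimentin (VIM), N-cadherin (CDH2) and SPARC, 77 of the 19571 genes in the deposited expression table. Membership was decided by gene symbol and by no measured value, and the set comprises 21 integrin, 11 laminin and 41 collagen genes and the 4 others. RNA was sequenced from LNCaP, an established androgen-sensitive human prostate cancer cell line. There were 3 libraries (replicates 1, 2 and 4) from cells labelled as stably overexpressing Flag-KDM4B, a histone lysine demethylase with a Flag tag, and 3 libraries (replicates 1, 2 and 3) from cells stably carrying the plenti6 control plasmid, called vector here. Both groups were kept for 3 days before harvest in RPMI medium with 10% of a serum abbreviated CFBS in the labels. The titles of the KDM4B-labelled libraries end in a code that vector titles do not have, and if the code marks a batch, batch and group cannot be told apart. The labels do not say whether the stable cells were 1 clone or a pool, or whether replicates were separate cultures, so p-values measure only the spread between these libraries, which may be technical.

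Integrins are receptors made of an alpha and a beta chain, and the pairing decides which matrix protein the receptor binds. Laminins are trimers of an alpha, a beta and a gamma chain and, with type IV collagen, build the basement membrane on which prostate epithelium rests. Fibrillar collagens and fibronectin form the interstitial matrix, which stromal cells largely produce in the prostate. Vimentin, N-cadherin and SPARC are commonly read as markers of the mesenchymal state.

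The KDM4B transcript itself barely separated the groups. It measured 26.33, 27.17 and 25.76 FPKM (fragments scaled to transcript length and to the library's total) in KDM4B-labelled replicates 1, 2 and 4, and 24.73, 25.15 and 25.28 FPKM in vector replicates 1, 2 and 3. The log2 fold change of 0.07 as deposited missed the threshold (limma, adjusted p = 0.113), and 0.31 after scaling passed it (adjusted p = 1.93e-05), so every direction below rests on the label. Ribosomal RNA took 9.61% ± 1.29 of the summed FPKM in the KDM4B-labelled libraries and 0.255% ± 0.189 in the vector libraries (SD, n = 3 each), with vector replicate 1 highest of its group at 0.473%. Over all 12148 genes tested the median log2 fold change was -0.22 as deposited. Dividing each library by its median of ratios to the other libraries (scaling) brought that median to -0.00048, and changes are given on both scales.

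Of the 77 genes, 27 reached a mean of 1 FPKM over the 6 libraries and were tested, and 50 did not. As deposited, 11 of the 27 were higher and 15 lower in the KDM4B-labelled libraries, and ITGA2 passed in neither direction. Among all tested genes 13.4% were higher and 60.3% lower as deposited (73.7% either way). After scaling, 11 were higher and 9 lower, against 34.1% and 33.9% of all tested genes (68.0% either way). Rescaling without ribosomal and other RNAs that carry no poly(A) tail also gave 11 higher and 9 lower, against 33.2% and 35.1% (68.2% either way). The 11 higher and 9 lower genes were called in the same direction on both scales, which 47.3% of all tested genes were. Here "rose" and "fell" are used for these 20 genes and for other genes called the same way on both scales. Log2 fold changes from limma are of log2(FPKM + 1), which understates changes of low genes. ITGB4, for example, had means 2.79-fold apart and a log2 fold change of 0.92 as deposited. On this scale, changes of at least 1 were seen in 3 higher and 3 lower genes as deposited (1.25% and 3.42% of all tested genes) and in 5 and 2 after scaling (1.76% and 2.0%). The median log2 fold change of the 27 was -0.24 as deposited and -0.01 after scaling, while their median absolute change after scaling was 0.51, against 0.21 over all tested genes. In 26 of the 27 the groups did not overlap as deposited and in 21 after scaling, as for 76.3% and 71.7% of all tested genes. In bulk RNA, fewer cells of a type and less RNA per cell cannot be told apart.

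**Figure D1:**
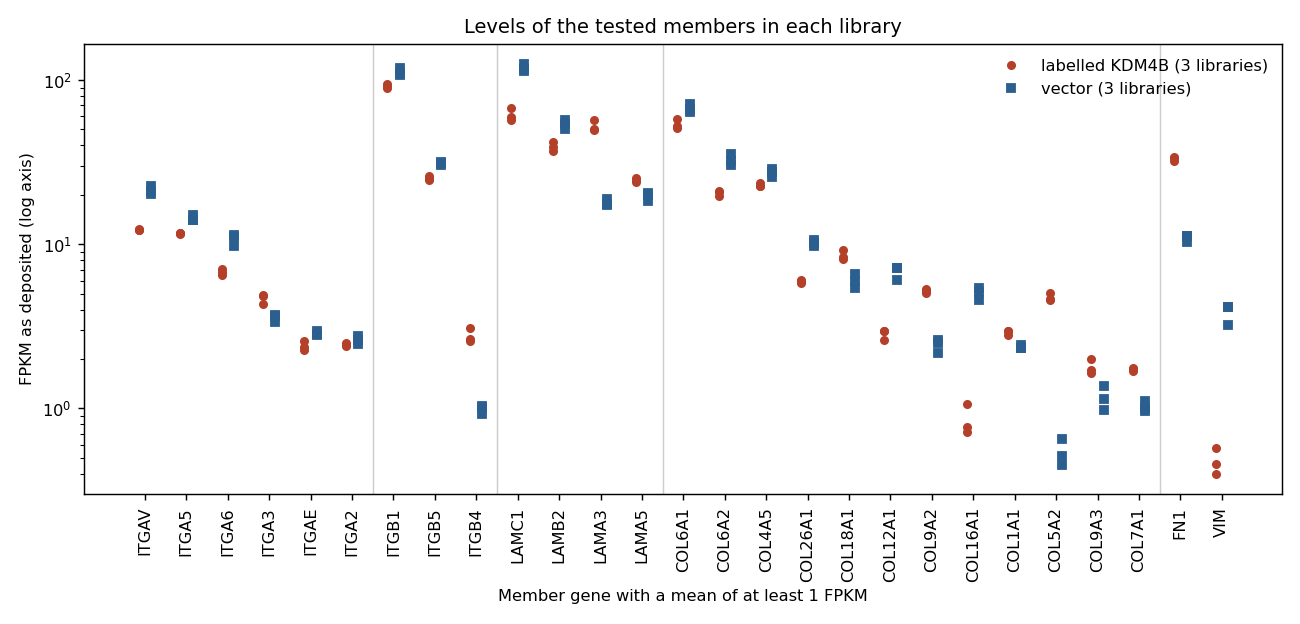
FPKM as deposited (log axis) of the 27 tested genes in each of the 3 KDM4B-labelled and 3 vector libraries, grouped as integrin alpha chains, integrin beta chains, laminins, collagens, and FN1 with VIM. The wide separations are LAMA3, COL5A2, ITGB4, FN1 and COL9A2, higher in the KDM4B-labelled libraries, and LAMC1, COL12A1, COL16A1 and VIM, higher in the vector libraries.

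The laminin chains moved in opposite directions: both tested alpha chains rose, while the tested beta and gamma chains fell. LAMA3 (gene 3909, chr18:23689453-23955066 on GRCh38), the alpha 3 chain of laminin-332, an adhesion ligand of basal epithelial cells, measured 49.72, 57.25 and 50.59 FPKM in KDM4B-labelled replicates 1, 2 and 4. In vector replicates 1, 2 and 3 it stood at 18.97, 17.56 and 17.28 FPKM. Every KDM4B-labelled library was far above every vector library. The means were 52.5 ± 4.12 and 17.9 ± 0.906 FPKM (SD, n = 3 each), 2.93-fold apart. The log2 fold change was 1.497 as deposited (SE 0.057; limma, adjusted p = 1.37e-09) and 1.73 after scaling (SE 0.050; adjusted p = 1.53e-09).

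LAMA5 (gene 3911), the main alpha chain of mature epithelial basement membranes, rose less. Its levels were 24.52, 25.45 and 23.81 FPKM in the KDM4B-labelled libraries and 18.44, 20.41 and 19.85 FPKM in the vector libraries. The groups did not overlap, and the log2 fold change was 0.32 as deposited (limma, adjusted p = 9.57e-05) and 0.55 after scaling (adjusted p = 1.61e-06). LAMC1 (gene 3915, chr1:183023420-183145592), the gamma chain shared by most laminins, was the most abundant laminin gene in the vector libraries at 124.50, 112.97 and 116.78 FPKM. In the KDM4B-labelled libraries it measured 59.79, 67.11 and 57.37 FPKM. That was 1.92-fold lower without overlap, and the log2 change was -0.93 as deposited (SE 0.057; limma, adjusted p = 5.42e-08) and -0.69 after scaling (adjusted p = 9.13e-07). LAMB2 (gene 3913), a laminin beta chain of mature basement membranes, fell as well, from 50.65, 56.95 and 53.68 FPKM in the vector libraries to 36.99, 42.00 and 39.13 FPKM. Its log2 fold change was -0.44 as deposited (limma, adjusted p = 1.89e-05) and -0.20 after scaling (adjusted p = 0.00342).

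Summed over the genes of each chain type, laminin alpha FPKM as deposited went from 37.7 ± 0.434 in the vector libraries to 77.2 ± 4.81 in the KDM4B-labelled libraries, whereas gamma FPKM went from 119 ± 5.85 to 62.1 ± 5.03 and beta FPKM from 54.6 ± 3.21 to 40.7 ± 2.59 (SD, n = 3 each). After scaling, the alpha sum went from 34.6 ± 0.394 to 83.9 ± 3.49 FPKM. The scaled gamma sum went from 109 ± 5.56 to 67.5 ± 4.24 FPKM, and the beta sum only from 50.1 ± 2.87 to 44.2 ± 1.90 FPKM. LAMA3 made up 67.9% ± 1.13 of laminin alpha FPKM in the KDM4B-labelled libraries and 47.6% ± 2.45 in the vector libraries. LAMA5 made up 31.9% ± 1.13 and 51.9% ± 2.52. The larger alpha chain was thus LAMA3 in all 3 KDM4B-labelled libraries and in vector replicate 1 (50.5% against 49.0%), and LAMA5 in vector replicates 2 and 3. A share within a library does not depend on the scaling. An exact permutation test (two-sided) gave p = 0.1 for each of these shares, the smallest that 3 against 3 allows. LAMB1, the other widespread laminin beta chain, was under the filter at 0.88, 1.08 and 1.05 FPKM in the KDM4B-labelled and 0.42, 0.37 and 0.33 FPKM in the vector libraries. Its share of laminin beta FPKM was 2.46% against 0.688%. LAMB3, the beta 3 chain of laminin-332, was scarce in both groups, at 0.267 and 0.373 FPKM in the KDM4B-labelled and vector means.

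**Figure D2:**
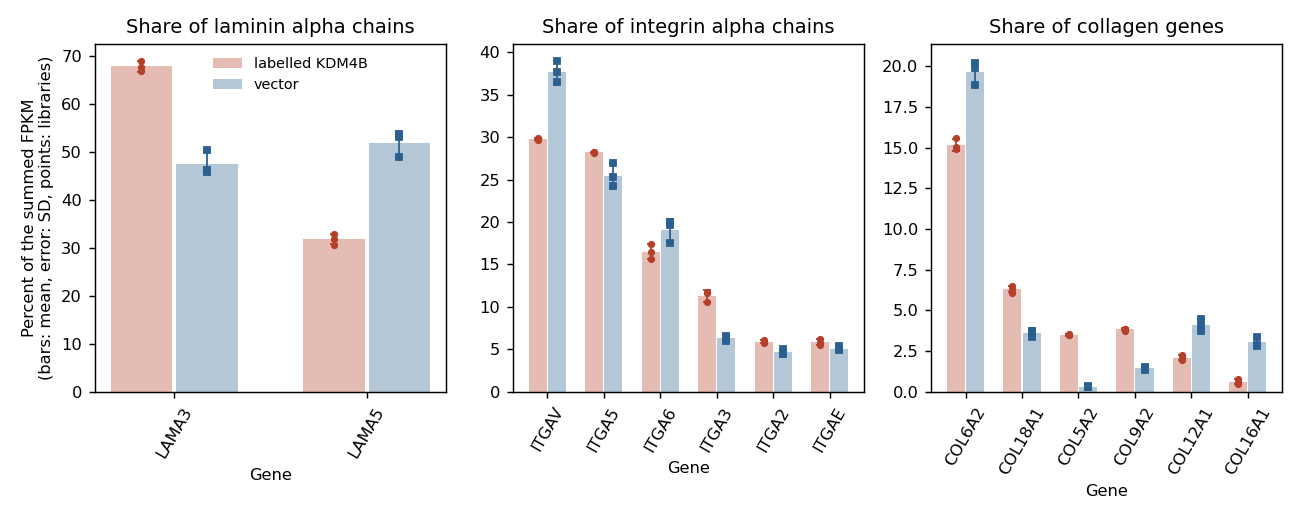
Percent of the summed FPKM of the laminin alpha, integrin alpha and collagen genes taken by single genes, with bars for group means, error bars for the SD and points for the 3 libraries of each group; the vertical scale differs between panels. LAMA3 went from 47.6% to 67.9% of laminin alpha FPKM, ITGAV from 37.7% to 29.8% of integrin alpha FPKM and COL5A2 from 0.322% to 3.49% of collagen FPKM between vector and KDM4B-labelled libraries.

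Among the 9 tested integrins, 2 rose (ITGA3 and ITGB4), 2 fell (ITGAV and ITGA6), 4 were lower only as deposited (ITGB1, ITGB5, ITGA5 and ITGAE) and ITGA2 was not called. ITGB4 (gene 3691, chr17:75721459-75757818), the beta 4 chain that pairs with alpha 6 in hemidesmosomes and binds laminin, measured 3.08, 2.59 and 2.63 FPKM in the KDM4B-labelled libraries. Its vector levels were 0.93, 1.01 and 1.04 FPKM. All 3 KDM4B-labelled libraries lay above all vector libraries, with a log2 fold change of 0.92 as deposited (SE 0.076; limma, adjusted p = 6.88e-07) and 1.07 after scaling (adjusted p = 8.73e-07). Its share of integrin beta FPKM was 2.28% ± 0.282 against 0.682% ± 0.034.

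The alpha partners that bind laminin went in opposite directions. ITGA6 (gene 3655), the partner of ITGB4 and ITGB1, measured 7.11, 6.80 and 6.45 FPKM in the KDM4B-labelled and 9.78, 11.06 and 11.43 FPKM in the vector libraries. It fell without overlap, by 0.59 on the log2 scale as deposited (limma, adjusted p = 4.39e-06) and by 0.37 after scaling (adjusted p = 0.000345). ITGA3 (gene 3675), which pairs with ITGB1 as a laminin receptor, stood at 4.31, 4.87 and 4.83 FPKM in the KDM4B-labelled and 3.67, 3.34 and 3.69 FPKM in the vector libraries. It rose without overlap, with a log2 fold change of 0.31 as deposited (limma, adjusted p = 0.000824) and 0.51 after scaling (adjusted p = 2.86e-05). ITGA7, the third alpha chain of this class, was under the filter, at 0.310 FPKM in the KDM4B-labelled and 0.570 FPKM in the vector mean.

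Of the alpha chains that bind the RGD sequence of fibronectin and vitronectin, ITGAV (gene 3685, chr2:186590056-186680901) fell. It measured 12.27, 12.22 and 12.32 FPKM in the KDM4B-labelled libraries, which were nearly equal, and 21.01, 20.18 and 22.75 FPKM in the vector libraries. The log2 fold change was -0.75 as deposited (SE 0.049; limma, adjusted p = 9.95e-08) and -0.52 after scaling (adjusted p = 5.22e-06). ITGA5 (gene 3678), the alpha chain of the main fibronectin receptor, measured 11.54, 11.67 and 11.68 FPKM in the KDM4B-labelled and 15.03, 13.99 and 14.12 FPKM in the vector libraries. Its log2 fold change of -0.28 as deposited passed (limma, adjusted p = 0.000129), but -0.06 after scaling did not (adjusted p = 0.259). So ITGAV took 29.8% ± 0.159 of integrin alpha FPKM in the KDM4B-labelled libraries against 37.7% ± 1.29 in the vector libraries, and ITGA5 28.2% ± 0.066 against 25.5% ± 1.37. FN1, a ligand of receptors with either chain, rose.

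ITGB1 (gene 3688), the common beta chain and the most abundant integrin here, measured 89.36, 92.05 and 94.99 FPKM in the KDM4B-labelled and 111.19, 107.91 and 118.10 FPKM in the vector libraries. These groups did not overlap as deposited. The log2 fold change was -0.28 (limma, adjusted p = 7.9e-05), and after scaling it was -0.04 (adjusted p = 0.371), with scaled means of 100.2 ± 3.27 and 103 ± 4.74 FPKM. ITGB5, which pairs with ITGAV, gave similar values, at -0.28 as deposited and -0.05 after scaling (limma, adjusted p = 0.298). ITGAE, the receptor chain for E-cadherin, was at 2.41 ± 0.161 against 2.87 ± 0.0929 FPKM. Its call as deposited (log2 fold change -0.18; limma, adjusted p = 0.0230) was lost after scaling (-0.01) and also without KDM4B replicate 1 (adjusted p = 0.0819), KDM4B replicate 2 (0.0550) or vector replicate 2 (0.0742). ITGA2, a collagen receptor chain, measured 2.49, 2.39 and 2.44 against 2.48, 2.77 and 2.62 FPKM, and its groups overlapped. Its log2 fold change was -0.07 as deposited (limma, adjusted p = 0.302) and 0.10 after scaling (adjusted p = 0.169).

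**Figure D3:**
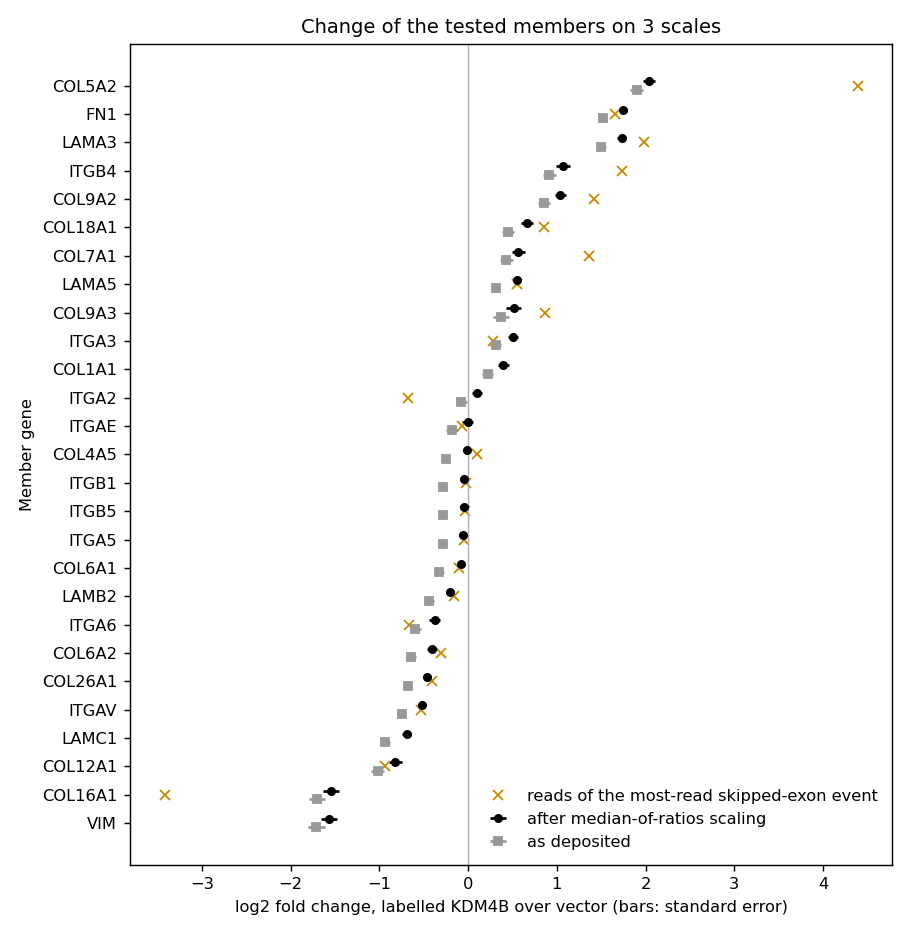
Log2 fold change (KDM4B-labelled over vector) of the 27 tested genes from deposited FPKM, from scaled FPKM (bars: standard error of each) and from reads of the most-read skipped-exon event of the gene, where it has one. COL5A2, FN1 and LAMA3 lie highest and VIM and COL16A1 lowest on the scaled measure, and ITGA2, ITGAE, COL4A5, ITGB1, ITGB5, ITGA5 and COL6A1 lie near 0 after scaling.

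Of the 41 collagen genes 12 were tested, of which 6 rose, 4 fell, and COL6A1 and COL4A5 were lower only as deposited. COL5A2 (gene 1290, chr2:189031898-189441111), a minor fibrillar collagen that copolymerises with type I collagen, had the widest change of the 27 genes on both scales. It measured 4.54, 5.02 and 4.63 FPKM in the KDM4B-labelled libraries and 0.51, 0.65 and 0.45 FPKM in the vector libraries. The means were 8.81-fold apart with no overlap, and the log2(FPKM + 1) fold change, which understates changes of low genes, was 1.90 as deposited (SE 0.075; limma, adjusted p = 1.71e-09) and 2.04 after scaling (adjusted p = 4.36e-09). COL1A1, the main chain of type I collagen, rose slightly, from 2.36 ± 0.0586 to 2.92 ± 0.0981 FPKM, with log2 fold changes of 0.22 as deposited (limma, adjusted p = 0.00589) and 0.40 after scaling. Its partner chain COL1A2, without which the usual type I trimer does not form, was listed at 0.02 FPKM or less in every library.

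COL9A2 and COL9A3, chains of the cartilage collagen IX, both rose. COL9A2 (gene 1298) measured 5.06, 5.33 and 5.17 FPKM in the KDM4B-labelled libraries against 2.17, 2.62 and 2.50 FPKM. It was higher in 3 of 3 libraries, at 0.85 as deposited (limma, adjusted p = 3.45e-07) and 1.04 after scaling. COL9A3 stood at 1.79 ± 0.193 against 1.16 ± 0.191 FPKM (0.37 as deposited, adjusted p = 0.00248, and 0.51 after scaling, limma). The other chain, COL9A1, was listed at 0.01 FPKM or less in each library. COL18A1 (gene 80781), a basement membrane collagen whose end fragment is endostatin, measured 8.31, 9.18 and 8.11 FPKM against 5.96, 6.56 and 5.44 FPKM in the vector libraries. It rose without overlap, with 0.45 as deposited (limma, adjusted p = 8.58e-05) and 0.66 after scaling. COL7A1, the anchoring fibril collagen, rose from 1.02 ± 0.0777 to 1.72 ± 0.0404 FPKM (0.43 as deposited, adjusted p = 0.000219, and 0.57 after scaling, limma).

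COL16A1 (gene 1307, chr1:31652263-31704017), a fibril-associated collagen, fell most of the collagens. It measured 0.77, 0.72 and 1.07 FPKM in the KDM4B-labelled libraries and 5.40, 5.13 and 4.55 FPKM in the vector libraries. That is 5.89-fold lower with no overlap, a log2 fold change of -1.70 as deposited (SE 0.086; limma, adjusted p = 1.25e-08) and -1.54 after scaling (adjusted p = 1.7e-07). COL12A1 (gene 1303), another fibril-associated collagen, fell from 6.02, 7.21 and 7.17 FPKM to 2.95, 2.97 and 2.61 FPKM. The change was -1.02 as deposited (limma, adjusted p = 2.05e-07) and -0.82 after scaling. COL26A1 fell from 10.1 ± 0.460 to 5.95 ± 0.127 FPKM, by 0.68 as deposited (limma, adjusted p = 2.59e-07) and by 0.46 after scaling. The 4 tested fibril-associated collagens were thus split evenly, COL9A2 and COL9A3 upward and COL12A1 and COL16A1 downward.

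COL6A1, a chain of collagen VI, the beaded filament collagen, was the most abundant collagen gene in every library. It took 39.6% ± 0.851 of collagen FPKM in the KDM4B-labelled and 40.6% ± 0.893 in the vector libraries (exact permutation p = 0.3, two-sided). Its level was 53.7 ± 3.41 against 67.3 ± 3.67 FPKM, and its call as deposited (-0.32; limma, adjusted p = 0.000172) was lost after scaling (-0.08, adjusted p = 0.133). COL6A2 (gene 1292), its partner, stood at 19.70, 21.16 and 20.79 FPKM against 30.22, 35.68 and 32.03 FPKM. It fell on both scales, by 0.64 (limma, adjusted p = 1.44e-06) and by 0.41 after scaling (adjusted p = 7.97e-05). COL6A3, the chain that completes the usual trimer, was at 0.0233 and 0.0200 FPKM in the group means. COL4A5, one of the type IV chains, was at 22.64, 23.49 and 22.63 FPKM against 25.81, 28.82 and 27.48 FPKM. Its log2 fold change was -0.24 as deposited (limma, adjusted p = 0.000549) and -0.01 after scaling (adjusted p = 0.841). COL4A1 and COL4A2, the chains of the common type IV network, were at 0.00333 FPKM in both means and at 0.280 against 0.213 FPKM.

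FN1 (gene 2335, chr2:215360865-215436068), which encodes fibronectin, rose about as much as LAMA3. It measured 32.32, 33.88 and 33.37 FPKM in KDM4B-labelled replicates 1, 2 and 4 and 10.34, 11.19 and 11.23 FPKM in vector replicates 1, 2 and 3. The replicates of each group were close together and the groups lay 3.04-fold apart, with a log2 fold change of 1.52 as deposited (SE 0.045; limma, adjusted p = 2.19e-10) and 1.75 after scaling (adjusted p = 4.71e-10).

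VIM (gene 7431, chr10:17228241-17237593), an intermediate filament protein of mesenchymal cells, went the other way. It stood at 3.23, 4.13 and 4.16 FPKM in the vector libraries and at 0.40, 0.57 and 0.46 FPKM in the KDM4B-labelled libraries. That was 8.06-fold lower without overlap, with a log2 fold change of -1.71 as deposited (SE 0.091; limma, adjusted p = 1.93e-08) and -1.57 after scaling (adjusted p = 1.53e-07). CDH2, the cadherin of mesenchymal and neural cells, was listed at 0.01 FPKM in KDM4B-labelled replicate 2 and at 0 in the other 5 libraries. SPARC, a collagen-binding matricellular protein, was at 0.09, 0.12 and 0.11 FPKM against 0.03, 0.02 and 0.01 FPKM, near the limit of values rounded to 2 decimals. The mesenchymal markers therefore gave 1 rise (FN1), 1 fall (VIM) and 2 genes too low to test.

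For 4 genes picked for their wide changes, the 250 bases before the RefSeq start of transcription (GRCh38.p14) are shown. FN1 and LAMA3 rose, and VIM and COL16A1 fell. Capitals mark matches on either strand. The letters searched were TATAAA for the core box of that name, GGGCGG for the GC box, CCAAT for the box of that name, CACCTG for the E-box that SNAI and ZEB factors bind, TGANTCA for AP-1 and TGACGTCA for the cAMP response element. The windows are FN1 at chr2:215436069-215436318 (minus strand), LAMA3 at chr18:23872770-23873019 (plus strand), VIM at chr10:17227991-17228240 (plus strand) and COL16A1 at chr1:31704018-31704267 (minus strand). The LAMA3 window lies inside the gene's span, before the start of its short transcript. No window before the start of its long transcript is shown.
FN1: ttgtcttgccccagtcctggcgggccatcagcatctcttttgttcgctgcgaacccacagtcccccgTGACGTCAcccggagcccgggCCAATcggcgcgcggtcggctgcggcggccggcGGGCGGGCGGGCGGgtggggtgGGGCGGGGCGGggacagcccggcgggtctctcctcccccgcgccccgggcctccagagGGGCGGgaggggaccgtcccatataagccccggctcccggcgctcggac
LAMA3: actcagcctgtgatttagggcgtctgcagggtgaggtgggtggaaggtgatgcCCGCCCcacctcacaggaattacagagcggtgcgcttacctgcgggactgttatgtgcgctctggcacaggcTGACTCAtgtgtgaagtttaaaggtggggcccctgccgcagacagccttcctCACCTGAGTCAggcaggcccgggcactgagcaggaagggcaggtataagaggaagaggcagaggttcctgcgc
VIM: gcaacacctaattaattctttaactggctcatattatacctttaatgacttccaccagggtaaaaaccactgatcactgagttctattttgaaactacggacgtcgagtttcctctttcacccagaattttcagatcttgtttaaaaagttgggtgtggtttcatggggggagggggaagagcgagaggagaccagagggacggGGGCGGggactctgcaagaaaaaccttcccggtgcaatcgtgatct
COL16A1: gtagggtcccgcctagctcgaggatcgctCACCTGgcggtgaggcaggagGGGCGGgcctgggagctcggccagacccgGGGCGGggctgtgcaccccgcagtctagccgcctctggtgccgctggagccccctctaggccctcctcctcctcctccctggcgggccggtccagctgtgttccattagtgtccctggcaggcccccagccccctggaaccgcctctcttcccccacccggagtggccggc
In the FN1 window 6 GC boxes, 1 CCAAT box and 1 cAMP response element were found. LAMA3 held 1 GC box, 1 E-box and 2 AP-1 matches, the second of which overlaps the E-box. The VIM window held 1 GC box alone, and COL16A1 held 2 GC boxes and 1 E-box. Windows were found for 57 of the 77 genes, 21 of them tested, and some genes have several. Of the 27 windows of these 21 tested genes, 70.4% held a GC box against 42.6% of all 35116 windows, and 7.41% a CCAAT box against 32.01%. The 35116 windows include those of genes under the filter. Shares over the windows of all tested genes were not computed, so the sets compared are unlike. The E-box was in 22.2% against 17.5%, TATAAA in 18.5% against 10.7%, AP-1 in 3.70% against 6.57% and the cAMP element in 3.70% against 1.65%. The androgen response element was in 0% against 0.0028%. The 27 windows were also richer in G and C than all 35116 windows (median 66.4% against 58%). The E-box stood in 3 of 6 genes that rose and 2 of 9 that fell, and the GC box in 6 of 6 and 7 of 9. These are letter matches only.

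The 50 genes under the filter included 25 that stayed below 0.1 FPKM in every library. Groups did not overlap in 25 of the 50 as deposited and in 27 after scaling, of which 22 were higher in the KDM4B-labelled and 5 in the vector libraries. Among all genes under the filter with any value above 0, groups did not overlap in 23.7% as deposited and in 27.8% after scaling. The direction of those genes was not counted, so the 22 and 5 have no share to be read against. COL23A1, a transmembrane collagen, was higher in the vector libraries, at 0.97, 1.11 and 1.25 against 0.30, 0.31 and 0.32 FPKM. COL4A6, a type IV chain, measured 0.78, 0.86 and 0.72 against 0.70, 0.57 and 0.68 FPKM in the vector libraries. ITGB7, a beta chain of leukocyte integrins, overlapped as deposited at 0.67, 0.73 and 0.85 against 0.54, 0.73 and 0.75 FPKM. Chosen after its values were seen, COL3A1, a fibrillar collagen, was at 0.43, 0.32 and 0.33 against 0.04, 0.08 and 0.08 FPKM. It is the neighbour of COL5A2 on chromosome 2, 19151 bases away, and the pair had scaled ratios of 6.41 and 10.4. COL4A5 and COL4A6, 379 bases apart on the X chromosome, differed in level, at 22.9 and 0.787 FPKM in the KDM4B-labelled means.

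**Figure D4:**
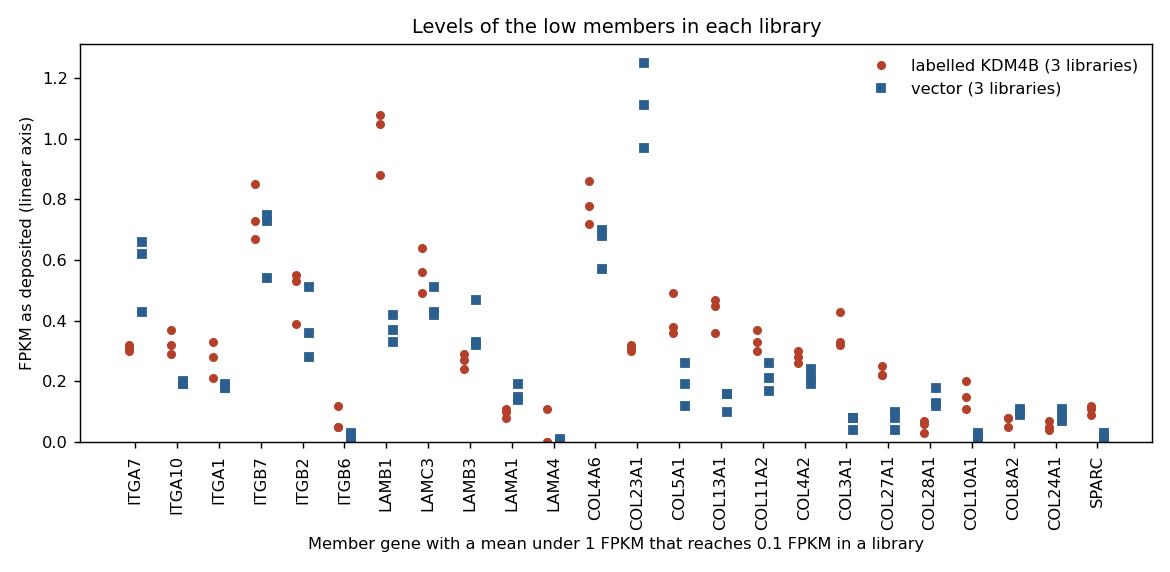
FPKM as deposited (linear axis) of 24 genes with a mean under 1 FPKM that reached 0.1 FPKM in at least 1 library, for each of the 3 KDM4B-labelled and 3 vector libraries. LAMB1 (0.88 to 1.08 against 0.33 to 0.42 FPKM) and COL23A1 (0.30 to 0.32 against 0.97 to 1.25 FPKM) are the widest separations.

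A second readout of the same libraries, reads counted over skipped-exon events, gave changes for 25 of the genes through the most-read event of each. Of these, 9 were higher, 6 lower and 10 not called (edgeR quasi-likelihood test, adjusted over 8926 genes), against 22.4% higher and 22.3% lower (44.7% either way) of all genes with a tested event. Without vector replicate 2 the count lower was 2. Of 24 genes tested in both readouts, 21 had the same call as scaled FPKM, 14 of them in a direction, and 0 had opposite calls. The sign of the change was the same in 22, and it differed for ITGA2 and COL4A5. ITGA2 was at 0.10 by scaled FPKM but at -0.67 by its event (edgeR, adjusted p = 0.0839). Its reads were 18, 19 and 21 in the KDM4B-labelled and 35, 45 and 28 in the vector libraries. COL4A5 was at -0.01 and 0.10. ITGA3, COL6A2 and COL9A3 were called by scaled FPKM only. LAMA3 had 942, 959 and 859 reads in the KDM4B-labelled and 290, 281 and 242 in the vector libraries, a change of 1.98 on the log2 scale (edgeR, adjusted p = 1.91e-23). FN1 had 559, 559 and 482 against 182, 203 and 207 reads (1.65; edgeR, adjusted p = 4.27e-18). COL5A2 had 16, 15 and 12 reads against 0, 0 and 2. COL16A1 had 5, 5 and 1 reads against 56, 44 and 41, so the KDM4B-labelled side rests on few reads. ITGB1, with 2185, 2322 and 2325 against 2769, 2573 and 2754 reads, changed by -0.03 after TMM scaling (edgeR, adjusted p = 0.699). ITGB7 was called higher by its event (1.03; edgeR, adjusted p = 0.0467); its FPKM overlapped as deposited but not after scaling, at 0.815 ± 0.1004 against 0.618 ± 0.105.

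Events along the same gene were compared next, over 149 skipped-exon events of these genes, 131 of them tested in a fit of 38215 events (19.8% higher and 19.3% lower in all). Events of a gene share reads and transcripts and are not replicates. All 22 LAMA3 events were higher, by 1.45 to 1.99 on the log2 scale, as were 18 of 20 LAMA5 events, all 6 ITGB4 events (1.501 to 2.06) and all 5 FN1 events (1.65 to 1.93). The FN1 events include exons of 270 and 273 bases, the lengths of the alternatively spliced extra domains A and B. Their reads were 422, 426 and 449 against 163, 157 and 164 for the exon of 270 bases, and 256, 242 and 260 against 51, 98 and 84 for that of 273 bases. Both rose with the gene (1.65 and 1.93). A retained intron event of FN1 had 259, 221 and 184 reads against 62, 77 and 77. Each count joins inclusion and skipping, so it says how much of the gene was read there and not which form was made.

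All 4 ITGAV, 4 COL12A1 and 2 COL26A1 events tested were lower, as were 5 of 7 LAMB2 events. None of the 10 COL4A5 or 4 ITGB1 events was called, and 1 of 15 ITGB5 events was lower. ITGA5, which was not called after scaling or by its most-read event, had 2 of 5 events called lower (-0.42 and -0.37). COL16A1 had 4 tested events, all lower, of unequal size. Its event nearest the 3′ end among these had 9, 5 and 13 against 26, 26 and 30 reads (-1.36), and the next one upstream had 5, 5 and 1 against 56, 44 and 41 reads (-3.41). The 2 events farther upstream had 3 against 72 and 14 against 88 reads in sum (-4.21 and -2.39). The difference between events was not tested.

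LAMA3 makes a long transcript and a short one that starts inside the gene. The 18 events listed with long transcripts alone had a median ratio of 3.02 (KDM4B-labelled over vector, each relative to the reads of its library), and the 4 listed with a short transcript also had 3.70, a grouping chosen after the events were seen. The ranges overlapped, at 2.71 to 3.74 and 2.91 to 3.95. Summed reads of the latter per read of the former were 0.424, 0.397 and 0.379 in the KDM4B-labelled and 0.351, 0.352 and 0.335 in the vector libraries. On this summed ratio the libraries of the groups did not overlap, and no such ratio of other genes is set beside it. The long-only events nearest the 3′ end had ratios of 3.48 and 3.74, in order. The events also listed with a short transcript followed with 3.95, 2.91, 3.62 and 3.78. Whether the summed ratio follows position along the gene or the transcript was not tested. Long-only events in turn rose by at least 1.45 on the log2 scale.

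**Figure D5:**
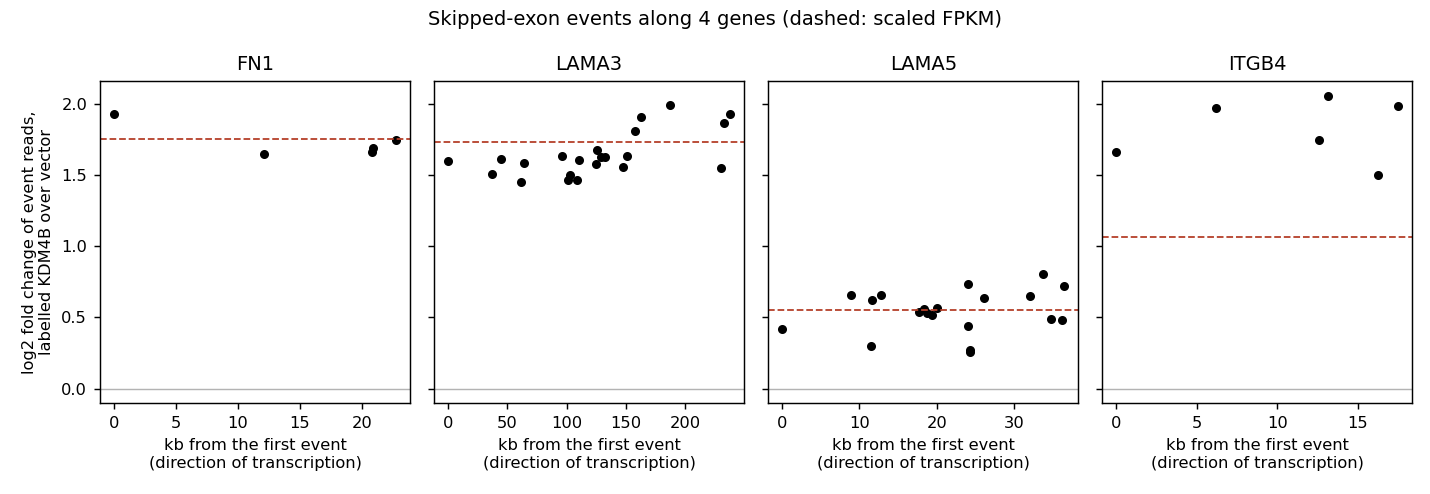
Log2 fold change of the reads of each tested skipped-exon event (points) against its distance in kilobases from the first event, in the direction of transcription, for FN1, LAMA3, LAMA5 and ITGB4; dashed lines mark the change of scaled FPKM. Every plotted event lies above 0, and the LAMA3 events range from 1.45 to 1.99.

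Genes that work with these proteins were read from 8 lists, 175 genes in the table and 104 tested. As deposited, 32 were higher and 53 lower, and after scaling 48 and 30, next to the shares of all tested genes above. In the list of other basement membrane proteins and matrix receptors, 7 of 10 tested genes were higher and 1 lower as deposited (7 and 0 after scaling; median 0.49 after scaling). SDC1, a heparan sulfate proteoglycan that binds laminin and fibronectin, rose from 17.3 ± 0.755 to 30.6 ± 1.34 FPKM, and SDC2, SDC4 and the collagen receptor DDR1 rose too. Genes of collagen folding, modification and export showed the reverse, with 2 of 13 higher and 11 lower as deposited (2 and 8 after scaling; median -0.31). P4HB, a subunit of prolyl 4-hydroxylase, fell from 552 ± 7.07 to 338 ± 6.85 FPKM, the cyclophilin PPIB, which helps collagen fold, from 664 ± 10.1 to 383 ± 5.42 FPKM and CTAGE5, an export factor of large cargo, from 30.4 ± 2.87 to 7.79 ± 0.501 FPKM. The lysyl hydroxylase PLOD3 fell by 0.44 after scaling.

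In the integrin adhesion plaque, 8 of 25 tested genes were higher and 11 lower as deposited, and 13 and 4 after scaling. FLNA, an actin crosslinker that binds integrin tails, rose from 51.1 ± 3.08 to 90.4 ± 7.0 FPKM. PLEC, the plectin that ties ITGB4 to keratin filaments, rose from 23.8 ± 1.86 to 41.6 ± 2.10 FPKM, while LPP and SHARPIN fell by 0.49 and by 0.28 after scaling. Of 12 matrix proteases and inhibitors, 2 were higher and 7 lower as deposited (5 and 4 after scaling). MMP16, a membrane-bound metalloprotease, rose from 1.08 ± 0.198 to 5.32 ± 0.323 FPKM and its inhibitor family member TIMP2 from 7.18 ± 0.958 to 14.4 ± 0.675 FPKM, whereas ADAMTS1 and SERPINE2 fell. Of 7 matricellular and elastic fibre genes, 2 were higher and 5 lower (2 and 3 after scaling), with THBS1 falling from 11.4 ± 0.625 to 5.0 ± 0.182 FPKM, and THBS3 and CYR61 also falling. LTBP4 was lower only as deposited (-0.30, and -0.07 after scaling).

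Among 8 tested transcription factors of epithelial and mesenchymal state, 4 were higher and 3 lower on both scales. SNAI2, a repressor of epithelial genes, fell from 3.79 ± 0.218 to 0.193 ± 0.068 FPKM (log2 fold change -2.01 as deposited, adjusted p = 1.55e-09, and -1.89 after scaling, limma). SNAI1, a repressor of the same family named after its values were seen, rose from 1.28 ± 0.322 to 1.98 ± 0.225 FPKM (0.40 as deposited, adjusted p = 0.00461, and 0.54 after scaling, limma). The epithelial factor OVOL2 fell, from 8.16 ± 0.180 to 4.23 ± 0.118 FPKM, and ELF3 and OVOL1 rose, by 0.88 and by 0.73 after scaling. Of 21 epithelial junction and keratin genes, 4 were higher and 12 lower as deposited, and 10 and 7 after scaling. DSC2, a desmosomal cadherin, rose from 42.9 ± 2.90 to 97.8 ± 1.97 FPKM, while CLDN7, a tight junction claudin, fell from 228 ± 11.1 to 109 ± 4.05 FPKM and KRT18 and TJP1 fell by 0.64 and by 0.40 after scaling. Of 8 genes of the TGF-beta pathway, which induces many matrix genes, 3 were higher and 3 lower as deposited, and 5 and 1 after scaling. INHBB, TGFBR3 and SMAD7 rose, by 0.57, 0.55 and 0.75 after scaling, and SMAD2 fell by 0.12.

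Because stromal cells make many of these proteins, markers of other cell types were read beside them. All 11 LNCaP luminal markers were above 1 FPKM in the group means, with sums of 1833 to 1898 FPKM in the KDM4B-labelled and 4563 to 4757 FPKM in the vector libraries. Of 13 fibroblast and smooth muscle markers in the table, 4 were tested and 3 rose (ACTA2, TAGLN and COL1A1), with summed levels of 18.2 to 22.5 against 8.90 to 12.3 FPKM. COL1A1, COL1A2 and COL3A1 are themselves among the 77 genes, so this list is not separate from them. ACTA2 measured 10.6 ± 2.30 against 3.53 ± 0.412 FPKM. S100A4, the other tested marker, was not called, at 0.697 against 1.73 FPKM in the means, with 1 vector library at 3.86 FPKM. Of the untested markers, COL3A1 was at 0.360 against 0.0667 FPKM, PDGFRB at 0.197 against 0.217 FPKM and MYH11 at 0.0467 against 0.0567 FPKM. PDGFRA and FAP were listed at 0 in every library, and LUM, THY1, DES and COL1A2 did not exceed 0.12 FPKM. Endothelial markers (8 in the table, 0 tested) summed to 1.02 to 1.48 against 1.73 to 1.91 FPKM, and immune markers (8, with 2 tested) to 4.94 to 6.20 against 5.08 to 5.52 FPKM. The immune list includes ITGB2, which is also among the 77 genes. Basal prostate markers (6 in the table) summed to 4.84 to 5.78 against 3.90 to 5.10 FPKM. Of these, ITGB4, itself one of the 77 genes, was higher in the KDM4B-labelled libraries, whereas DST (2.37 against 2.91 FPKM), KRT14 (0.0833 against 0.273 FPKM) and KRT17 (0.010 against 0.290 FPKM) had lower means there. DST was called lower only as deposited, KRT14 and KRT17 were not tested, and KRT15 and CDH3 stayed at 0.05 FPKM or less. The part of ACTA2- and TAGLN-expressing cells in the changes of the matrix genes was not tested.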

How the data were processed

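RNA-seq of LNCaP cells used total RNA extracted with Trizol, per the labels. The submitters' processing notes list HISAT, StringTie, Cufflinks, GRCh38 and hg38 without roles or versions. No name of a splicing caller is given in the sources used here. Deposited by the authors were FPKM per gene, rounded to 2 decimals, whose depth is unknown, and read counts per splicing event that join both splice forms. Reads over skipped-exon events, which overlap, summed to between 14212396 and 17021204 per library. None of the 149 exons of these genes lay inside their gene on GRCh38, so no event position is printed; gene spans are RefSeq's (GRCh38.p14), found for all 77 gene IDs.

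FPKM were tested with limma 3.58.1 (R 4.3.3) on log2(FPKM + 1) with a mean-variance trend, for genes with a mean of at least 1 FPKM. Reads of the most-read event per gene (at least 10 reads in 3 libraries) went into the quasi-likelihood test of edgeR 4.0.16 (TMM). Tests were two-sided, Benjamini-Hochberg adjusted at 0.05 over all genes or events tested, and were tried on simulated data. Replicates differed by more than sampling noise (chi-square per degree of freedom 2.50 to 3.12 within groups, 32.8 to 39.1 between, over 7164 events). Members, lists, tests and alternatives were chosen with earlier results of these data known. Genes named are the 27 tested, FN1, VIM, CDH2, SPARC, low genes with at least 0.5 FPKM in every library of a group, and up to 4 genes of lowest p per list; COL1A2, COL3A1, COL4A1, COL4A2, COL6A3, COL9A1, LAMB3, ITGA7, SNAI1 and the untested cell type markers were named after their values were seen. The values of 1 low gene are not reported here. Alternatives were other pseudocounts, filters, scalings and variance models, DESeq2 1.42.0 for event reads, a block for the replicate number, and leaving out 1 library at a time.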

Additional observations from a re-analysis of the deposited data

How the results depend on the processing

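The count of genes higher in the KDM4B-labelled libraries (11 of 27) was 11 with every library left out in turn, as deposited and after scaling, 25 of 76 with no filter and 4 of 15 with a mean of at least 5 FPKM, where fewer genes are tested. The count lower (15) was 9 after scaling, 9 when rescaled without RNAs that carry no poly(A) tail, 14 to 15 with a library left out, and 9 to 9 after scaling with a library left out. Related genes lower went from 53 to 30 after scaling and to 30 when rescaled without those RNAs, and to 48 to 55 with a library left out (29 to 32 higher). Genes without overlap numbered 26 to 27 with a library left out, which cannot lower this count for the same genes. Event reads gave 9 higher and 6 lower, and 7 to 9 and 2 to 5 with a library left out, the 2 without vector replicate 2. ITGA2 changed sign, from -0.07 to 0.10 after scaling and 0.095 when rescaled without those RNAs; neither passed the threshold. The pseudocount, the trend and DESeq2 moved no count by over 1.5 times. Replicate numbers 1 and 2 occur in both groups, and their deviations correlated at -0.024 and 0.135. With the replicate block, 11 genes were higher and 15 lower, event reads gave 7 and 5, and no call of the 27 genes changed. Numbers found in only 1 group add nothing to the group comparison of that fit, so it rests on replicates 1 and 2. Splice forms could be recovered for 11 events (9 of ITGB5, 2 of LAMA5), with at most 4 skipping reads each over the 6 libraries, and 0 passed the read filters, so the test of splice forms and its alternatives (DESeq2, a minimum of 20 reads, libraries left out) were not run.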
